A study of Mus musculus with 8 samples.

Results

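Helper T cells take on distinct programmes under a small set of transcription factors, and this account follows 9 of them through 4 sorted populations of CD4 single-positive thymocytes from mice. The genes were Tbx21, Eomes, Runx3, Gata3, Maf, Rora, Bcl6, Zbtb16 and Zbtb7b. They were chosen by name, through the RefSeq accession of each array probe, and stood on 14 probes among 21154 genes on the array. All 9 were well above background on each of the 8 arrays, so every one of them passed the filter on dim probes that left 13498 genes for testing.

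The WT Tconv group held wild-type conventional T cells with little CD25, and the WT Treg group held wild-type regulatory T cells with Foxp3, the factor that defines that lineage. The Nr4a-TKO preTreg group held Treg precursors labelled as triple knockout for Nr4a, a family of nuclear receptors induced by antigen receptor signals, and sorted for high CD25, GITR and Nr4a3. The Foxp3-KO preTreg group held Treg precursors labelled as lacking Foxp3 and sorted for high CD25 and a Foxp3 reporter. Each group had 2 biological replicates lysed without culture; strain, age, the promoter behind each deletion and the design of the reporter were not given in the sources used here. There was no wild-type precursor group, so wherever precursors are set against wild-type cells, genotype and sort gate cannot be told apart. The precursor groups were also sorted by different gates, so the same holds where they are set against each other. In these bulk samples, fewer cells of a type and less RNA per cell cannot be told apart either.

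Naive CD4 T cells become Th1, Th2, Th17 or follicular helper cells according to the cytokines and antigen signals they meet, and each fate is tied to a factor that switches on its cytokines and represses the alternatives. T-bet (Tbx21) directs Th1 cells, GATA3 directs Th2 cells, ROR receptors direct Th17 cells and BCL6 directs follicular helper cells. In the thymus some of the same factors act earlier: ThPOK (Zbtb7b) commits thymocytes to the CD4 lineage and is opposed by RUNX3, while PLZF (Zbtb16) marks innate-like cells such as NKT cells that acquire effector programmes before they leave. Regulatory T cells can also use T-bet, GATA3 or BCL6.

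Promoter windows are printed for Runx3 and Zbtb7b, the opposed pair. Among genes with windows, they were the only ones with a match to the letters searched for. Whether promoter sequence bears on their signal was not tested. RefSeq start sites on GRCm38.p6 gave 10 windows of 250 bases before the start for 7 of the 9 genes. The capitals mark the letters TGTGGT, a RUNX site, or ACCACA, the same letters on the other strand. Runx3 has 2 windows, at chr4:135120395-135120644 and chr4:135152295-135152544 on the plus strand, and Zbtb7b has 2 on the minus strand, at chr3:89393379-89393628 and chr3:89387672-89387921, each printed 5′ to 3′ along the gene.
Runx3 start 1: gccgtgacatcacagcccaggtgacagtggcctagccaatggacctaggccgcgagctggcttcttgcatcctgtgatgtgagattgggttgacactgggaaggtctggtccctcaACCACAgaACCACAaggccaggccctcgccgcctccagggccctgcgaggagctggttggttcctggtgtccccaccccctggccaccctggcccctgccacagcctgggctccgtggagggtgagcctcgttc
Runx3 start 2: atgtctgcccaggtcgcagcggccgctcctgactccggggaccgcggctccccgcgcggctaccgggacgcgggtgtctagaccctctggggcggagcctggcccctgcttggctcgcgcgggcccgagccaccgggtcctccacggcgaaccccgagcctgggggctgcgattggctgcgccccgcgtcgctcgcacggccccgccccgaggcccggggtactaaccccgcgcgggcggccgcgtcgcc
Zbtb7b start 1: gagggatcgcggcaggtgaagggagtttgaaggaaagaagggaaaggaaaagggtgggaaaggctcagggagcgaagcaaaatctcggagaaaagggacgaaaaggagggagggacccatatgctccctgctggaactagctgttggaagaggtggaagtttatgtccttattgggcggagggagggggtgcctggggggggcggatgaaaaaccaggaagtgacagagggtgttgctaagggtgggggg
Zbtb7b start 2: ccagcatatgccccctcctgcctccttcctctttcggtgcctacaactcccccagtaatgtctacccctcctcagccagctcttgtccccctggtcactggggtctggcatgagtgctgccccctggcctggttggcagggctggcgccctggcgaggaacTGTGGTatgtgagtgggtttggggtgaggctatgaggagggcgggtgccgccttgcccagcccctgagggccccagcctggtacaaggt
The first Runx3 window held the RUNX letters at 2 places, starting at bases 117 and 125 of the printed run, and the second Zbtb7b window held them once, starting at base 162. The rest of the 10 windows did not hold these letters. Of 32851 mouse promoter windows of this length, 14% held them at least once. Both strands of all 10 windows were also searched for AAAGGTCA (the Nr4a site NBRE, found in 1.34% of all windows), GTAAACA (forkhead, 3.17%), TCACACC (T-box, 3.33%), AGATAA (the site of GATA factors, 9.99%), AGGTCA (ROR, 14%, and contained in the NBRE), TTCNTAGAA (BCL6, 0.947%), TGCTGAC (MAF, 3.81%) and TGANTCA (AP-1, 6.75%). These letters were not in the 10 windows, which draws nothing about the factors.

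Values are log2 of the processed signal relative to the 75th percentile of the array, so 0 is the level that 3 in 4 probes stay under; a difference of 1 is 2-fold, and levels of different genes were not set against each other because probes differ in brightness. The 75th percentile lay 7.97 to 9.20 times above local background and 47.7% to 52.1% of probes were well above background. The targeted genes were measured first. Foxp3 averaged 4.86 ± 0.20 in WT Treg, 3.52 ± 0.38 in Nr4a-TKO, 1.86 ± 0.16 in Foxp3-KO and -3.59 ± 0.28 in WT Tconv (SD, n = 2). Nr4a1 was 7.85 ± 0.16 and Nr4a2 3.80 ± 0.10 in Nr4a-TKO against 6.84 ± 0.0036 and -1.54 ± 0.033 in WT Tconv (SD, n = 2). The probes may lie outside the deleted parts, which were not given, so these signals check neither knockout, and the group names below are those of the labels. The 10 T cell markers, Cd4 and CD3 genes among them, were above background on every array.

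Between 2 and 5 of the 9 factors passed an adjusted p of 0.05 (limma, adjusted over 13498 genes) in each of the 6 pairwise comparisons. WT Treg differed from WT Tconv in 5 factors, with Rora and Bcl6 higher and Runx3, Zbtb16 and Zbtb7b lower, where 35.4% of all tested genes were called (13.8% higher and 21.5% lower). Nr4a-TKO differed from WT Tconv in 5, with Maf, Rora and Bcl6 higher and Zbtb16 and Zbtb7b lower, against 48.2% of tested genes (21.4% higher and 26.8% lower). Foxp3-KO differed from WT Tconv in 4, with Bcl6 higher and Gata3, Zbtb16 and Zbtb7b lower, against 24.6% (10.4% higher and 14.3% lower). These 3 comparisons share the WT Tconv arrays, so an agreement between them is not independent.

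Against WT Treg, Nr4a-TKO had 4 factors higher, Tbx21, Runx3, Maf and Zbtb16, where 35.4% of tested genes were called (19.4% higher and 15.9% lower). Foxp3-KO differed from WT Treg in 2, with Zbtb16 higher and Rora lower, against 6.41% (3.48% higher and 2.93% lower). Nr4a-TKO differed from Foxp3-KO in 5, with Runx3, Gata3, Maf and Rora higher and Zbtb16 lower, against 33.8% (18% higher and 15.7% lower). Across the 9 factors the median difference was 0.06 for WT Treg against WT Tconv (all tested genes -0.09), 1.28 for Nr4a-TKO against WT Tconv (-0.10) and -0.27 for Foxp3-KO against WT Tconv (-0.10). Leaving out single arrays moved these counts to between 3 and 8, 5 and 8, 1 and 6, 2 and 6, 1 and 5, and 3 and 7 in the order given. Both Foxp3-KO arrays set the upper ends of the first pair of comparisons: without either, 8 factors were called in each. The calls over all tested genes moved too, from 1655 to 5734, 3080 to 7182, 470 to 4141, 2121 to 5837, 71 to 1342 and 2027 to 5336 in the same order. The lowest of these were without WT Tconv replicate 1 for the first 3 comparisons, without WT Treg replicate 2 for the next 2, and without Nr4a-TKO replicate 1 for the last.

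**Figure D1:**
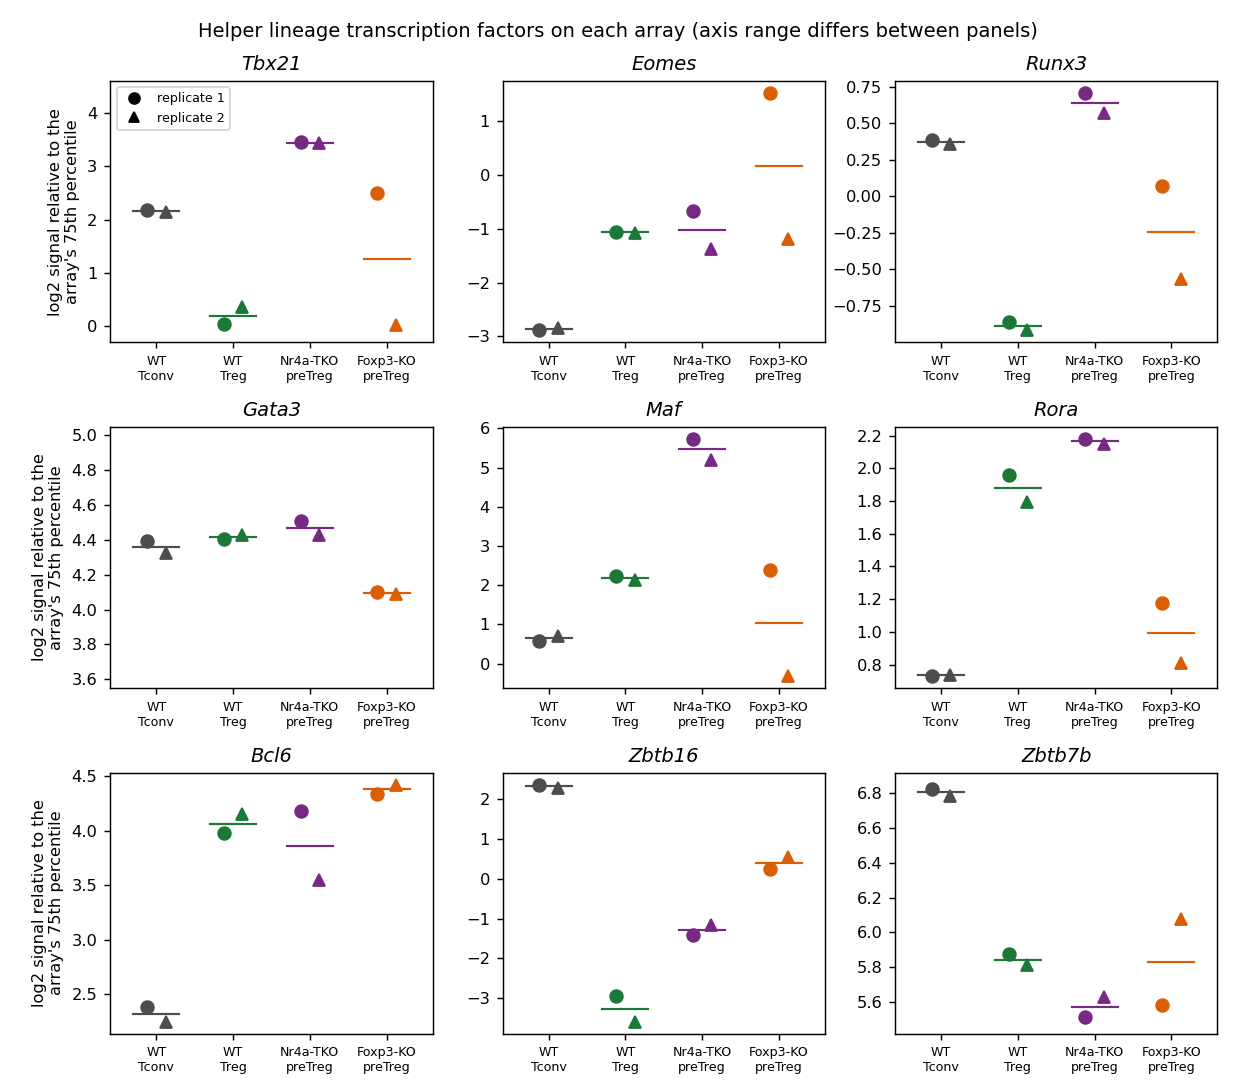
Level of each factor on each of the 8 arrays, as log2 signal relative to the array's 75th percentile (vertical axis, its range differs between panels) by group (horizontal axis). Circles are replicate 1, triangles replicate 2 and bars the group mean; the Foxp3-KO replicates lie far apart for Tbx21 (2.51 and 0.02), Eomes (1.52 and -1.19) and Maf (2.38 and -0.32).

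**Figure D2:**
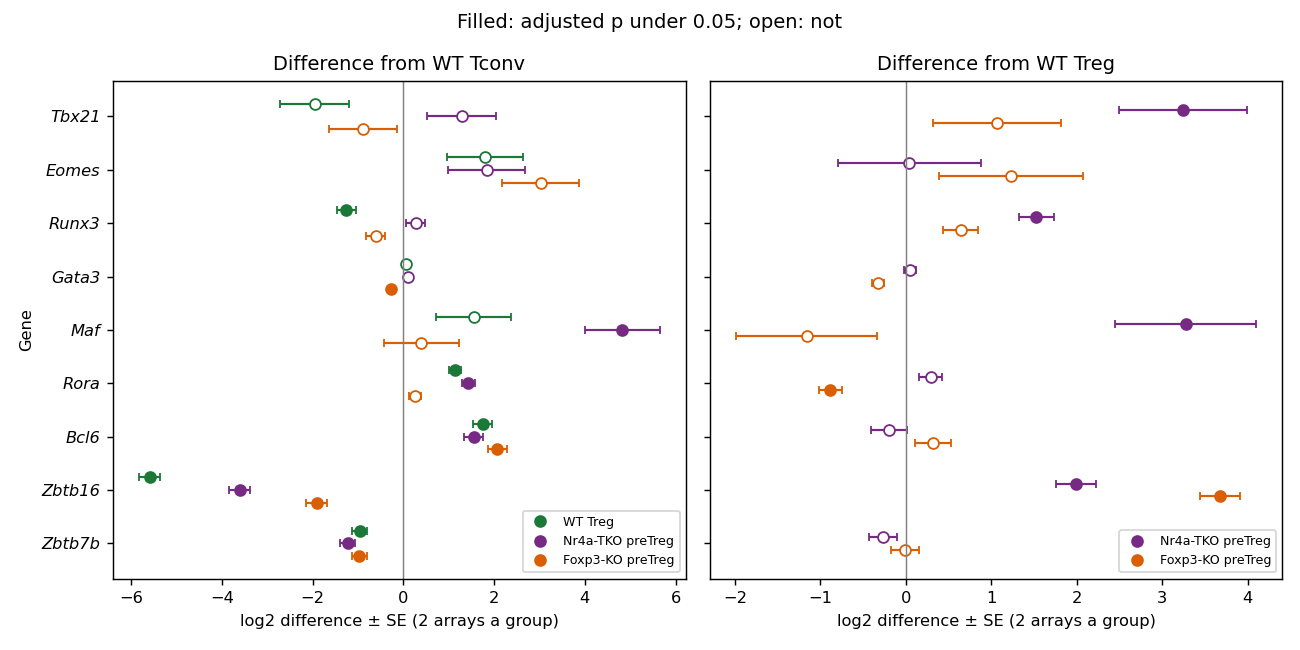
Difference of each factor from WT Tconv (left) and from WT Treg (right) in log2, with its standard error from the fit over all groups (2 arrays a group). Filled points passed an adjusted p of 0.05 and open points did not; Zbtb16 has the lowest values on the left, down to -5.59 in WT Treg.

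Tbx21 encodes T-bet, which drives interferon-gamma expression in Th1 cells. It was 2.18 and 2.14 on the WT Tconv arrays, 0.04 and 0.36 in WT Treg, 3.45 and 3.43 in Nr4a-TKO, and 2.51 and 0.02 in Foxp3-KO. Nr4a-TKO was highest, WT Treg lay below WT Tconv without overlap, and the Foxp3-KO replicates spanned the range from WT Treg to above WT Tconv. Tbx21 was higher in Nr4a-TKO than in WT Treg by 3.24 ± 0.75 (SE, adjusted p = 0.0242). Against Foxp3-KO, Nr4a-TKO was 2.18 ± 0.75 higher without passing (adjusted p = 0.0741). That difference was called with normexp background correction (2.02, adjusted p = 0.0393) and an intensity trend (adjusted p = 0.0412), and without Foxp3-KO replicate 1 (3.42, adjusted p = 0.000473) or replicate 2 (0.94, adjusted p = 0.0174). In order of level, Nr4a-TKO, WT Tconv, Foxp3-KO and WT Treg, no neighbours differed at the threshold (adjusted p = 0.207, 0.404 and 0.433).

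The WT Treg difference from WT Tconv of -1.96 ± 0.75 had an adjusted p of 0.0957 with the Foxp3-KO spread in the pooled error. Without Foxp3-KO replicate 1 or without replicate 2, the same difference had an adjusted p of 0.000984, and that of 1.28 for Nr4a-TKO against WT Tconv had 0.00179. In the other direction, the call for Nr4a-TKO against WT Treg was lost without any single WT Tconv, WT Treg or Nr4a-TKO array (adjusted p 0.0536 to 0.0984). Foxp3-KO against WT Tconv was -2.14 without replicate 1 (adjusted p = 0.00427) and 0.35 without replicate 2 (adjusted p = 0.139).

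Eomes encodes eomesodermin, the T-box relative of T-bet in memory CD8 T and NK cells. Its values were -2.89 and -2.83 in WT Tconv, -1.07 and -1.07 in WT Treg, -0.68 and -1.38 in Nr4a-TKO, and 1.52 and -1.19 in Foxp3-KO. WT Tconv was below all 6 other arrays, and the other groups overlapped. The differences from WT Tconv were 1.79 ± 0.84 in WT Treg (adjusted p = 0.154), 1.83 ± 0.84 in Nr4a-TKO (adjusted p = 0.123) and 3.02 ± 0.84 in Foxp3-KO (adjusted p = 0.0512), none of them called. Foxp3-KO, Nr4a-TKO, WT Treg and WT Tconv, in falling order, did not differ between neighbours (adjusted p = 0.311, 0.975 and 0.154); the interval for Nr4a-TKO against WT Treg ran from -2.05 to 2.14 (95%).

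Leaving out either Foxp3-KO array gave an adjusted p of 0.00631 for WT Treg and 0.00422 for Nr4a-TKO against WT Tconv. Foxp3-KO itself was 1.67 above WT Tconv without replicate 1 (adjusted p = 0.0305) and 4.38 above it without replicate 2 (adjusted p = 0.00265). The difference from WT Treg was -0.12 and 2.59 in turn, with adjusted p = 0.817 and 0.0207. With all arrays in place, Foxp3-KO against WT Tconv was called with an intensity trend (adjusted p = 0.0254), with genes above background on all arrays (0.0344) and under median scaling (2.87, adjusted p = 0.0398). A second Eomes probe was above background on 1 array, Foxp3-KO replicate 1, at -1.95.

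Runx3 encodes the RUNX factor that silences Cd4 and supports cytotoxic and Th1 genes. It was 0.38 and 0.36 in WT Tconv, -0.86 and -0.92 in WT Treg, 0.71 and 0.57 in Nr4a-TKO, and 0.07 and -0.56 in Foxp3-KO. No 2 groups overlapped, and WT Treg was lowest. Runx3 was lower in WT Treg than in WT Tconv by 1.26 on the log2 scale (-1.26 ± 0.21, adjusted p = 0.00843) and higher in Nr4a-TKO than in WT Treg by 1.53 ± 0.21 (adjusted p = 0.00515) and than in Foxp3-KO by 0.89 ± 0.21 (adjusted p = 0.0254). Neighbours in the order Nr4a-TKO, WT Tconv, Foxp3-KO and WT Treg did not differ at the threshold (adjusted p = 0.315, 0.0794 and 0.131).

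The dimmer second Runx3 probe was likewise lower in WT Treg than in WT Tconv (-0.88 ± 0.10, adjusted p = 0.00322), was also lower in Foxp3-KO (-0.75 ± 0.10, adjusted p = 0.00924), and placed Nr4a-TKO at -0.15 from WT Tconv where the brighter probe gave 0.27, neither called. Without WT Tconv replicate 1 or 2 the WT Treg difference was not called (adjusted p = 0.0566 and 0.0542). The call against Foxp3-KO was lost without WT Tconv replicate 1 or 2 (adjusted p = 0.0568), Nr4a-TKO replicate 1 (0.111) or replicate 2 (0.0739), and with only those groups fitted (0.117). On all arrays Foxp3-KO was lower than WT Tconv with the mean of both probes (-0.68, adjusted p = 0.0189), under median scaling (-0.77, adjusted p = 0.029) and with normexp (-0.51, adjusted p = 0.0495). Without Foxp3-KO replicate 1 the Foxp3-KO group was below WT Tconv (-0.93, adjusted p = 0.00923), and without replicate 2 it was above WT Treg (0.96, adjusted p = 0.0153). Without either Foxp3-KO array, 0.27 above WT Tconv was called in Nr4a-TKO (adjusted p = 0.036).

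The genes around these 3 factors show what else set the Foxp3-KO replicates apart. Tbx21, Eomes and Maf were 2.48, 2.71 and 2.70 higher in replicate 1 than in replicate 2, gaps that 1.67%, 1.24% and 1.27% of tested genes exceeded in size, and the other 6 factors differed by 0.64 or less. In replicate 1, 14 of 18 innate-like T cell genes and 9 of 12 cytotoxic genes were more than 1 higher than in replicate 2, against 6.63% of all tested genes. So were 7 of 15 Th17, 5 of 14 Th1, 5 of 16 follicular helper and 4 of 15 Th2 genes. Lineage choice genes had 1 of 15 and repressor partners 0 of 15. Ifng was 2.79 in replicate 1 and -2.04 in replicate 2, and the granzyme gene Gzma was 5.28 and 1.83.

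Some markers of other cells moved with that gap. The summed linear level of 11 natural killer cell markers, with the 75th percentile as 1, was 62 in Foxp3-KO replicate 1 (10 of 11 above background) and 7.12 in replicate 2 (6 of 11), 18 and 17.9 in WT Tconv, 7.72 and 7.22 in Nr4a-TKO and 3.14 and 2.04 in WT Treg. Ncr1, a defining NK receptor, was not well above background in WT Tconv, WT Treg and Foxp3-KO replicate 2. The CD8 T cell list held 6 markers, Eomes among them. Without Eomes, the other 5 were above background on every array and summed to 128.5 and 16.5 in Foxp3-KO, 124 and 126 in Nr4a-TKO, 20.8 and 21.1 in WT Tconv, and 42.1 and 39.0 in WT Treg. Ccl5 (6.46 and 2.47 in Foxp3-KO) and Nkg7 (5.18 and 2.88) made up most of that sum in replicate 1. The defining CD8 genes ran the other way, with Cd8a at -0.76 and -0.019 and Cd8b1 at 0.63 and 1.2 in Foxp3-KO. In Nr4a-TKO, Cd8b1 was 0.37 and 0.97, below the 1.37 and 1.22 of WT Tconv. Cd8a, at -0.87 and -0.48 in Nr4a-TKO, was above the -1.12 and -0.92 of WT Tconv. The part of such cells in the Tbx21, Eomes and Runx3 values was not tested.

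**Figure D3:**
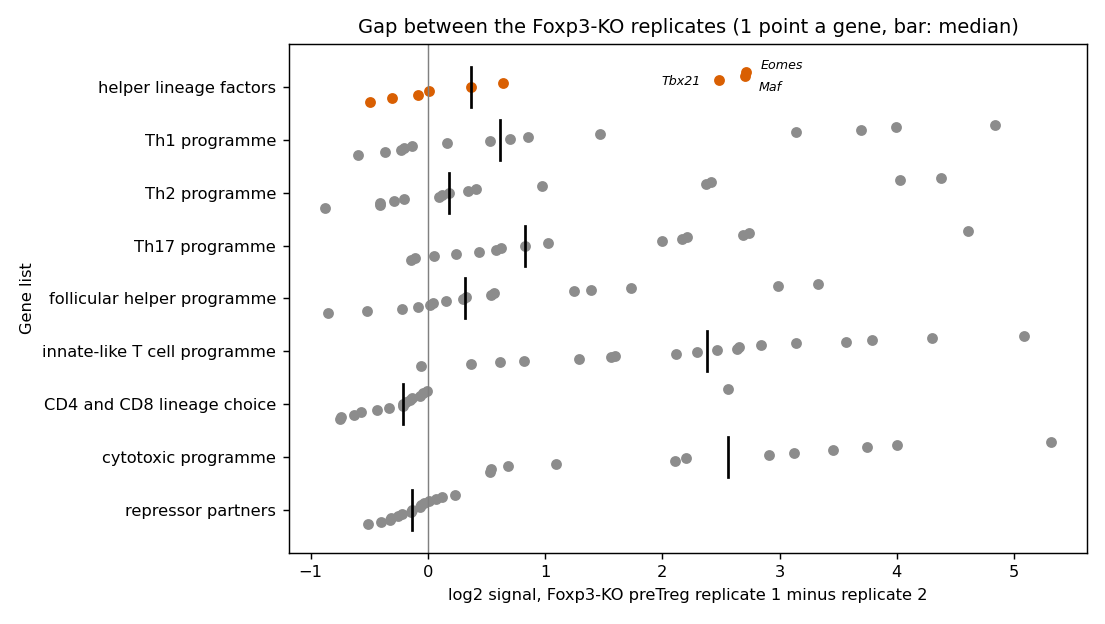
Gap between the Foxp3-KO replicates for each tested gene (1 point a gene; horizontal axis, replicate 1 minus replicate 2 in log2) by gene list (vertical axis), with the list median as a bar. Tbx21, Eomes and Maf lie between 2.48 and 2.71, and the innate-like and cytotoxic lists have medians of 2.38 and 2.56 against -0.02 for all tested genes.

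Gata3 encodes the factor needed for Th2 cells and for CD4 thymocyte development. Its values were 4.40 and 4.32 in WT Tconv, 4.40 and 4.43 in WT Treg, 4.51 and 4.43 in Nr4a-TKO, and 4.10 and 4.09 in Foxp3-KO. It varied least of the 9, and only the Foxp3-KO pair stood below the rest. Gata3 was lower in Foxp3-KO, by -0.27 ± 0.069 from WT Tconv (adjusted p = 0.0437), and higher in Nr4a-TKO than in Foxp3-KO (0.37 ± 0.069, adjusted p = 0.0137), and the difference of Foxp3-KO from WT Treg had an adjusted p of 0.0569 (-0.32 ± 0.069). Neighbours in the order Nr4a-TKO, WT Treg and WT Tconv were not separated (adjusted p = 0.592 and 0.558), with a 95% interval of -0.12 to 0.23 for WT Treg against WT Tconv; that difference was 0.06, and -0.09 when arrays were scaled to the median.

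The call against WT Tconv was lost without any single array (adjusted p 0.0604 to 0.223), and with quantile normalization (-0.16, adjusted p = 0.134). It was also lost with the replicate number as a block (adjusted p = 0.0641), with no filter on dim probes (0.0634) and with only the 2 groups fitted (0.118). The call against Foxp3-KO was lost without Nr4a-TKO replicate 1 (0.33, adjusted p = 0.0672) and with only those groups fitted (adjusted p = 0.102). Foxp3-KO against WT Treg was called for Gata3 with an intensity trend (adjusted p = 0.0178), normexp (0.0255), genes above background on all arrays (0.0433) and quantile normalization (0.0482).

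Maf encodes c-MAF, which supports IL-4, IL-10 and IL-21 in Th2, regulatory and follicular helper cells and is also abundant in macrophages. It was 0.57 and 0.71 in WT Tconv, 2.24 and 2.14 in WT Treg, 5.74 and 5.19 in Nr4a-TKO, and 2.38 and -0.32 in Foxp3-KO. Nr4a-TKO was above all other arrays, and the Foxp3-KO replicates lay on either side of both wild-type groups. Maf was higher in Nr4a-TKO by 4.82 ± 0.83 than in WT Tconv (28.3-fold, adjusted p = 0.00721), by 3.27 ± 0.83 than in WT Treg (9.65-fold, adjusted p = 0.0311) and by 4.43 ± 0.83 than in Foxp3-KO (21.6-fold, adjusted p = 0.0142). The last difference was 5.78 without Foxp3-KO replicate 1 and 3.08 without replicate 2.

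WT Treg, Foxp3-KO and WT Tconv followed in that order with no called neighbours (adjusted p = 0.437 and 0.744). The WT Treg difference from WT Tconv, 1.55 ± 0.83, had an adjusted p of 0.199, and 0.00563 without Foxp3-KO replicate 1 or 2. The call against WT Treg was lost without any single WT Tconv, WT Treg or Nr4a-TKO array (adjusted p 0.0644 to 0.13) or with no filter on dim probes (0.0531), and that against Foxp3-KO without Nr4a-TKO replicate 1 (adjusted p = 0.0724) or with only those groups fitted (adjusted p = 0.0827). Foxp3-KO against WT Tconv was -0.96 without replicate 1 (adjusted p = 0.0601) and 1.74 without replicate 2 (adjusted p = 0.0119), and against WT Treg it was -2.51 (adjusted p = 0.011) and 0.19 (adjusted p = 0.653).

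Myeloid markers moved in part with Maf. All 16 were above background in Nr4a-TKO and in Foxp3-KO replicate 1, 14 in Foxp3-KO replicate 2, 15 on each WT Treg array and 10 and 11 in WT Tconv. Their mean log2 level was 2.86 and 2.13 in Nr4a-TKO, 2.51 and 0.85 in Foxp3-KO, 1.38 and 0.21 in WT Treg, and -1.37 and -1.46 in WT Tconv. Their summed linear level, which a few bright probes set, overlapped between groups, from 442 to 540. The defining markers C1qa, C1qc, Cd14, Adgre1 and Fcgr3 were not well above background in WT Tconv. Nor were Cd14 in WT Treg and Cd14 and Fcgr3 in Foxp3-KO replicate 2. Of the 16 markers, 14 were called higher and 1 lower in Nr4a-TKO than in WT Tconv. The bright Itgam (5.26 and 5.34 in WT Tconv, 4.97 and 4.99 in Nr4a-TKO) and Siglech (8.55 and 8.61, then 8.38 and 8.35) ran opposite to Maf there. Their part in the Maf values was not tested.

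Rora encodes RORα, which takes part in Th17 cells and is required for group 2 innate lymphoid cells. Its values were 0.73 and 0.74 in WT Tconv, 1.96 and 1.80 in WT Treg, 2.18 and 2.15 in Nr4a-TKO, and 1.18 and 0.81 in Foxp3-KO. The 4 groups did not overlap. Rora was higher than in WT Tconv by 1.14 ± 0.14 in WT Treg (adjusted p = 0.00328) and by 1.43 ± 0.14 in Nr4a-TKO (adjusted p = 0.00131), and Foxp3-KO was lower than WT Treg (-0.88 ± 0.14, adjusted p = 0.0262) and lower than Nr4a-TKO, which was 1.17 ± 0.14 above it (adjusted p = 0.004). Nr4a-TKO and WT Treg were not separated (adjusted p = 0.149, 95% interval -0.05 to 0.63), nor were Foxp3-KO and WT Tconv (adjusted p = 0.203).

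Both calls against WT Tconv held under each alternative. The call of Foxp3-KO against WT Treg was lost without any single WT Tconv, WT Treg or Nr4a-TKO array (adjusted p 0.0525 to 0.107), with only those groups fitted (adjusted p = 0.17), with no filter on dim probes (0.0554), and with the mean of both Rora probes (-0.39, adjusted p = 0.148). The mean of probes also ended the call of Nr4a-TKO against Foxp3-KO (0.29, adjusted p = 0.135); the second probe was not well above background on any array. Without Foxp3-KO replicate 2 the group was 0.44 above WT Tconv (adjusted p = 0.0305). Without either Foxp3-KO array the 0.29 between Nr4a-TKO and WT Treg was called (adjusted p = 0.0408).

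Markers of innate lymphoid cells moved with Rora in Nr4a-TKO: all 11 were above background in Nr4a-TKO, against 6 or 7 on every other array, with sums of 149 and 142, against 72 and 72.4 in WT Tconv, 43.3 and 22.4 in Foxp3-KO and 24 and 29.1 in WT Treg. The defining markers Nmur1, Arg1 and Ptgdr2 were not well above background outside Nr4a-TKO. Kit ran otherwise, at 2.20 and 1.76 in Foxp3-KO and 1.46 and 1.29 in WT Treg. It was -1.37 and -0.77 in Nr4a-TKO and -3.53 and -3.46 in WT Tconv. In WT Tconv the sums were set mostly by Il7r and Id2 (5.35 and 4.92 in replicate 1). The sums were lower in WT Treg than in WT Tconv, the reverse of Rora. The part of these markers in the Rora values was not tested.

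Bcl6 encodes the repressor that directs follicular helper cells and germinal centre B cells. It was 2.38 and 2.25 in WT Tconv, 3.97 and 4.15 in WT Treg, 4.18 and 3.54 in Nr4a-TKO, and 4.34 and 4.42 in Foxp3-KO. All 6 other arrays stood above both WT Tconv arrays. Bcl6 was higher than in WT Tconv by 1.75 ± 0.21 in WT Treg (3.36-fold, adjusted p = 0.00349), by 1.55 ± 0.21 in Nr4a-TKO (2.92-fold, adjusted p = 0.00361) and by 2.07 ± 0.21 in Foxp3-KO (4.19-fold, adjusted p = 0.0041). These 3 calls held under each alternative.

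The order Foxp3-KO, WT Treg and Nr4a-TKO had no called neighbours (adjusted p = 0.403 and 0.487), with 95% intervals of -0.21 to 0.85 for Foxp3-KO against WT Treg and -0.73 to 0.33 for Nr4a-TKO against WT Treg. Without Nr4a-TKO replicate 1, Nr4a-TKO was 0.84 below Foxp3-KO (-0.84, adjusted p = 0.0231). The summed level of 11 B cell markers was 79.2 and 19.9 in Nr4a-TKO and 24.7 and 6.91 in Foxp3-KO. It was 6.78 and 4.87 in WT Treg and 3.06 and 2.94 in WT Tconv. The replicates ran in the order of their Bcl6 values in Nr4a-TKO and WT Tconv, and in the reverse order in Foxp3-KO and WT Treg. Of these markers 10 or 11 were above background in Nr4a-TKO, 10 and 8 in Foxp3-KO, 8 and 5 in WT Treg, and 5 and 6 in WT Tconv, where Cd79a, Ms4a1 and Pax5 were not. Their part in the Bcl6 values was not tested.

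Zbtb16 encodes PLZF, the factor of NKT cells and other innate-like lymphocytes. It was 2.37 and 2.27 in WT Tconv, -2.95 and -3.60 in WT Treg, -1.41 and -1.17 in Nr4a-TKO, and 0.25 and 0.56 in Foxp3-KO. No 2 groups overlapped, and Zbtb16 was the one factor called in all 6 comparisons. It was lower than in WT Tconv by 48.3-fold in WT Treg (-5.59 ± 0.23, adjusted p = 0.00021), by 12.2-fold in Nr4a-TKO (-3.61 ± 0.23, adjusted p = 0.000549) and by 3.78-fold in Foxp3-KO (-1.92 ± 0.23, adjusted p = 0.00691). Each step of the order WT Tconv, Foxp3-KO, Nr4a-TKO and WT Treg passed the threshold, with Nr4a-TKO below Foxp3-KO (-1.69 ± 0.23, adjusted p = 0.00632) and above WT Treg (1.98 ± 0.23, adjusted p = 0.00342).

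Foxp3-KO was above WT Treg by 3.68 ± 0.23 (12.8-fold, adjusted p = 0.00454). The WT Treg values lay not far above the lowest signal well above background on the WT Treg arrays (-3.93 and -4.01). The call of Foxp3-KO against WT Tconv was lost without WT Tconv replicate 1 (adjusted p = 0.0588) or 2 (adjusted p = 0.0524), and that against WT Treg when only those groups were fitted (adjusted p = 0.0844); the other 4 held under each alternative. With normexp background correction the differences involving WT Treg were smaller, at -3.99 for WT Treg against WT Tconv, 2.17 for Foxp3-KO against WT Treg and 0.90 for Nr4a-TKO against WT Treg, all still called. The list of gamma-delta and invariant T cell markers has Zbtb16 as 1 of 8 measured genes, so it was summed without it. The other 7 summed to 11.9 and 11.4 in WT Tconv, 4.87 and 2.92 in WT Treg, 26.9 and 23.4 in Nr4a-TKO, and 22.3 and 7.18 in Foxp3-KO. This sum was lowest where Zbtb16 was lowest, in WT Treg, but was higher in Nr4a-TKO than in WT Tconv, the reverse of Zbtb16. Tmem176b was the brightest of these markers in Nr4a-TKO (4.01 and 3.54, against 1.28 and 1.32 in WT Tconv). Single markers differed: Cd163l1 and Sox13 were lower in Nr4a-TKO than in WT Tconv, as Zbtb16 was, and the others were higher. Cd163l1 was 3.08 and 2.99 in WT Tconv, 0.47 and 0.92 in Nr4a-TKO and -1.31 and -2.87 in WT Treg. Of these 7 markers, 4 to 7 were above background on an array, and Il17a was not in WT Tconv and WT Treg. Their part in the Zbtb16 values was not tested.

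Zbtb7b encodes ThPOK, which holds CD4 thymocytes to the helper fate. Its values were 6.82 and 6.79 in WT Tconv, 5.88 and 5.81 in WT Treg, 5.51 and 5.63 in Nr4a-TKO, and 5.58 and 6.08 in Foxp3-KO. Both WT Tconv arrays lay above the other 6. Zbtb7b was lower than in WT Tconv by 0.96 on the log2 scale in WT Treg (-0.96 ± 0.16, adjusted p = 0.00962), in Nr4a-TKO (-1.23 ± 0.16, adjusted p = 0.00334) and in Foxp3-KO (-0.98 ± 0.16, adjusted p = 0.0148). WT Treg, Foxp3-KO and Nr4a-TKO followed with no called neighbours (adjusted p = 0.969 and 0.265), and the 95% interval for Foxp3-KO against WT Treg was -0.42 to 0.39.

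All 3 Zbtb7b probes, each tested alone, were lower in the 3 groups than in WT Tconv, from -0.96 on the brightest to -1.62 on the dimmest, with adjusted p from 0.00338 to 0.0252. On the brightest probe the WT Treg call was lost without WT Tconv replicate 1 (adjusted p = 0.0629) or 2 (0.0593) or WT Treg replicate 2 (0.0527). The Foxp3-KO call was lost without WT Tconv replicate 1 (0.0941) or 2 (0.0873) and with only those groups fitted (0.0696). Without Foxp3-KO replicate 1, Nr4a-TKO was 0.50 below Foxp3-KO (-0.50, adjusted p = 0.0143), and without either Foxp3-KO array the -0.27 of Nr4a-TKO against WT Treg was called (adjusted p = 0.0382). Markers of double-positive thymocytes, the stage before, summed to 96.9 and 95.7 in WT Tconv, 44.3 and 65.8 in Foxp3-KO, 31.1 and 26.3 in WT Treg, and 19.9 and 24.2 in Nr4a-TKO, with 7 to 10 of 10 above background and Rag2 not in WT Treg and Nr4a-TKO. A few bright probes set these sums, Ccr9 the brightest of them in WT Tconv (5.87 and 5.88). The mean log2 level overlapped between Foxp3-KO (0.16 and 0.90) and WT Tconv (0.57 and 0.42). It was -0.34 and -0.90 in WT Treg and -1.35 and -0.57 in Nr4a-TKO. The part of these markers in the Zbtb7b values was not tested. Runx3 and Zbtb7b, the pair whose windows are printed above, were both lower in WT Treg than in WT Tconv.

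Genes of each factor's programme were then counted in the same fits. The lists were chosen with earlier results of these data known, so the counts are a description and not an independent test. In Nr4a-TKO against WT Tconv, 13 of 15 tested Th17 genes were higher (median of the list 3.30, against -0.10 over all tested genes), 9 of 15 Th2 genes (1.65), 9 of 16 follicular helper genes (1.5) and 6 of 14 Th1 genes (1.51). The counts lower were 1, 1, 4 and 1. Of all tested genes, 21.4% were higher and 26.8% lower in this comparison. Il17a, Il17f, Il22, Il23r and Il1r1 of the Th17 list passed the filter on dim probes only through Nr4a-TKO, where they were high. So did Il5 (Th2), Hlx (Th1) and Tox2 (follicular helper). The counts and medians of these lists therefore follow in part from the filter. Il17a, the defining Th17 cytokine, was at least 140-fold higher in Nr4a-TKO, since it was not well above background in WT Tconv (adjusted p = 0.00453); this bound sets the Nr4a-TKO mean against the lowest signal well above background. Among Th2 cytokines, Il13 was higher by 5.20 ± 0.10 (adjusted p = 0.000119) and Il4 by 2.85 ± 0.42 (adjusted p = 0.0044), and Il5 was at least 99.2-fold higher (adjusted p = 0.000312). Ifng, at 2.93 and 2.79 in Nr4a-TKO and -1.14 and -1.25 in WT Tconv, was not called (4.06 ± 1.45, adjusted p = 0.0647). Its pooled error held the spread of the Foxp3-KO replicates, at 2.79 and -2.04. That spread enters the error of every gene counted here, and was also large for the Th1 genes Cxcr3 and Ccl5 (gaps of 3.14 and 3.99).

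Other lists in Nr4a-TKO held 8 of 18 innate-like genes higher and 3 lower (median 0.26), 5 of 12 cytotoxic genes higher (1.47), 2 of 15 genes of CD4 and CD8 lineage choice higher and 7 lower (-0.26), and 2 of 15 repressor partners higher and 6 lower (-0.21). Sh2d1b1 of the innate-like list and Ccl3 of the cytotoxic list passed the filter only through Nr4a-TKO. Gzmb, a granzyme of killer cells, was higher by 4.99 ± 0.97 (adjusted p = 0.0105). Satb1, a genome organiser of thymocytes, was lower (-2.49 ± 0.28, adjusted p = 0.00209), as was Bach2, a repressor of effector genes (-1.55 ± 0.19, adjusted p = 0.00286).

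In WT Treg against WT Tconv, 4 of 15 Th2 genes were higher and 5 lower (median -0.02), 4 of 15 Th17 genes higher and 1 lower (0.21), 5 of 16 follicular helper genes higher and 3 lower (0.13) and 3 of 14 Th1 genes higher (0.22). Il4 was lower by 3.62 on the log2 scale (-3.62 ± 0.42, adjusted p = 0.00299) and Il13 was also lower (-3.09 ± 0.10, adjusted p = 0.000128). The chemokine receptor gene Ccr6 was higher by 7.73 ± 0.34 (adjusted p = 0.000234) and Pdcd1, which encodes PD-1, by 2.0 ± 0.24 (adjusted p = 0.00327). Of innate-like genes 3 of 18 were higher and 7 lower (median -1.46), of lineage choice genes 2 of 15 higher and 8 lower (-0.39), of repressor partners 2 of 15 higher and 5 lower (-0.07), and of cytotoxic genes 2 of 12 higher (0.48). All tested genes were called higher in 13.8% and lower in 21.5% of cases, and several of these counts lie near those shares.

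In Foxp3-KO against WT Tconv, 5 of 15 Th2 genes were lower (median -0.09), 4 of 15 Th17 genes higher and 1 lower (0.61), 6 of 16 follicular helper genes higher and 1 lower (0.22) and 2 of 14 Th1 genes higher (0.24). Il4 was lower by 2.20 on the log2 scale (-2.20 ± 0.42, adjusted p = 0.0195), and Pdcd1 was higher by 1.72 ± 0.24 (adjusted p = 0.00911). Of innate-like genes 3 of 18 were higher (median -0.18), of cytotoxic genes 1 of 12 higher (0.41), of lineage choice genes 1 of 15 higher and 1 lower (-0.13) and of repressor partners 1 of 15 higher and 5 lower (-0.13). The shares over all tested genes were 10.4% higher and 14.3% lower, and counts such as the 2 of 14 Th1 genes lie near them. The gap between the Foxp3-KO replicates enters all of these.

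**Figure D4:**
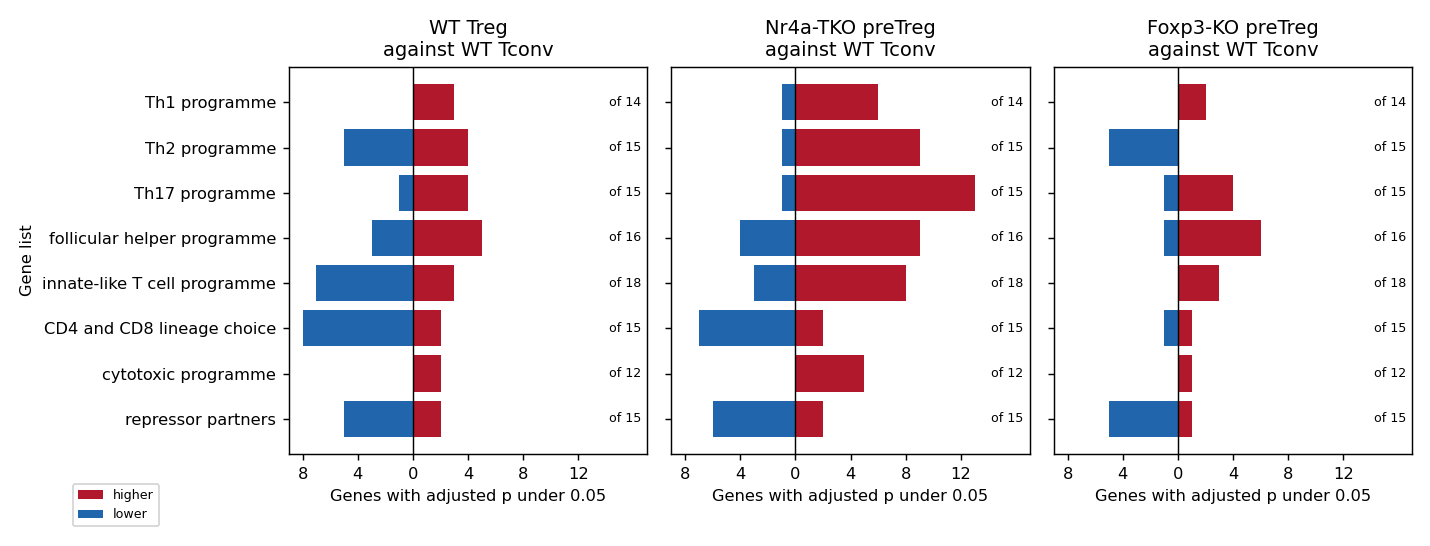
Number of genes with an adjusted p under 0.05 (horizontal axis; red to the right, higher; blue to the left, lower) in each of 8 gene lists (vertical axis) for the 3 comparisons with WT Tconv, with the number of tested genes at the right. The longest bar is the 13 of 15 Th17 genes higher in Nr4a-TKO. Some of these passed the filter on dim probes only through that group, and the lists were chosen with earlier results of these data known.

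Genes whose levels over the 8 arrays were most like each factor's were listed by Pearson's r, as a description over 4 pairs of replicates. Tbx21 was most like Crtam (0.992), Fasl (0.991) and Dnajc15 (0.979), and Eomes most like Mei1 (0.970), Eapp (0.954) and Gyg (0.952). For Runx3 the genes were Ccdc102a (0.993), Atp6v0e (0.990) and Ntrk3 (0.990), and for Gata3 they were Csrnp1 (0.984), Gabpb2 (0.972) and Nckap1 (0.972). Maf was most like Csf1 (0.997) and Prdm1 (0.995), and Rora most like Tub (0.995), Pfn2 (0.992) and Pithd1 (0.992). The Bcl6 pattern was nearest to Glt8d1 (0.991), Ulk2 (0.988) and Gm12250 (0.981), that of Zbtb16 to Ttc7b (0.997), Slc16a10 (0.988) and Hmgn1 (0.986), and that of Zbtb7b to Rfng (0.999), Setd4 (0.994) and Kat2a (0.991). All of them were measured on the same 8 arrays of 4 groups, which these values share.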

How the data were processed

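RNA of 8 samples, 2 per group, was labelled with Cy3 and hybridised to one-colour Agilent arrays. The deposited values used are processed spot intensity, which per the file headers was background-subtracted by Agilent Feature Extraction 10.7.1.1, a version credited to the submitters' processing notes. The authors' matrix of the same arrays, also deposited as intensity, was an alternative.

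Control and flagged spots were left out (0 spots were saturated), log2 values were averaged over a probe's spots, and the 75th percentile of each array was subtracted. Symbols came from RefSeq accessions (28026 probes; 27655 had none). The brightest probe of a gene was used if well above background on both arrays of at least 1 group. One limma 3.58.1 model in R 4.3.3 (lmFit and eBayes, 4 residual degrees of freedom) held the 4 groups, with Benjamini-Hochberg adjustment over 13498 genes at 0.05. The procedure was tested on simulated data. The number of arrays limits the precision.

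The members and gene lists were chosen with earlier results of these data known. Named beside the members are up to 4 tested genes per list with the smallest adjusted p, Ifng, Il4 and Il17a, and the 3 genes most like each member; a few genes that the rule names are not reported here. Others named (Ncr1, Gzma and defining markers among them) were picked for their values or roles. Alternatives were quantile normalization, median scaling, normexp (offset 50), the deposited matrix, no filter, all arrays above background, mean of probes, single probes, an intensity trend, only the groups compared, a replicate block and leaving out each array. Replicate differences of 2 groups correlated across genes at 0.148 to 0.259 among WT Treg, Nr4a-TKO and Foxp3-KO and at -0.0285 to -0.0105 with WT Tconv. Since this did not hold for every pair and the labels tie no numbers, replicate numbers were not taken to pair the samples. Array coordinates are not given because the array was annotated on another build. Figures used matplotlib 3.10.9.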

Additional observations from a re-analysis of the deposited data

How the results depend on the processing

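Of 990 values of the 54 member differences under other settings, 869 kept direction and side of the threshold. In part of these settings only the error could change, so direction was fixed. These were fits without an array of a group not compared, with an intensity trend, with a replicate block or with only the groups compared. Bcl6, Rora and Zbtb7b in Nr4a-TKO and Bcl6, Rora and Zbtb16 in WT Treg against WT Tconv were among those that kept both. With only the groups compared in a fit, 8 factors were called in WT Treg and 2 in Foxp3-KO against WT Tconv, 2 in Nr4a-TKO against Foxp3-KO, and 0 in Foxp3-KO against WT Treg (limma; 3 had an unadjusted p under 0.05 in that fit). The last was 1 with the mean of probes and with no filter. Without single arrays the counts ran from 3 to 8 (WT Treg against WT Tconv), 5 to 8 (Nr4a-TKO), 1 to 6 (Foxp3-KO), 2 to 6 (Nr4a-TKO against WT Treg), 1 to 5 (Foxp3-KO against WT Treg) and 3 to 7 (Nr4a-TKO against Foxp3-KO).

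Signs turned for uncalled differences. Nr4a-TKO against WT Treg was -0.60 for Eomes and -0.10 for Rora with the mean of probes, -0.033 for Gata3 with quantile normalization and 0.065 for Zbtb7b on its second probe, which gave 0.13 against Foxp3-KO. Gata3 in WT Treg against WT Tconv was -0.090 under median scaling, and Runx3 in Nr4a-TKO against WT Tconv was -0.15 on its second probe. Without single arrays, Nr4a-TKO against WT Treg ran from -0.52 to 0.12 for Bcl6 and -0.31 to 0.39 for Eomes. Foxp3-KO against WT Treg ran from -0.12 to 2.59 for Eomes, -2.51 to 0.19 for Maf, -0.18 to 2.31 for Tbx21 and -0.26 to 0.23 for Zbtb7b. Foxp3-KO against WT Tconv ran from -0.96 to 1.74 for Maf and -2.14 to 0.35 for Tbx21, and Nr4a-TKO against Foxp3-KO from -2.55 to 0.17 for Eomes. The cause was not tested, beyond the fewer arrays and spread that each such fit holds.

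With the replicate number as a block, the factors called numbered 5, 5, 3, 4, 2 and 5 in the order of the report; Gata3 in Foxp3-KO against WT Tconv lost its call and no other factor's call changed. Median scaling moved the median of all tested genes to -0.23 (WT Treg), -0.17 (Nr4a-TKO) and -0.25 (Foxp3-KO) against WT Tconv. Calls were then 1471 higher and 4234 lower in WT Treg, in place of 1867 and 2907, and 1133 and 3894 in Foxp3-KO, in place of 1399 and 1927. Against WT Treg and Foxp3-KO, Nr4a-TKO had 2898 and 2759 higher and 1418 and 1375 lower, in place of 2625 and 2435 and 2151 and 2123. Across all genes, only the groups compared gave 1285 calls for Foxp3-KO against WT Tconv (3326 in the joint fit), 893 for Nr4a-TKO against Foxp3-KO (4558) and 0 for Foxp3-KO against WT Treg (865), where 2287 had an unadjusted p under 0.05. With no filter these were 2146 (1177 higher and 969 lower), 7371 (2341 higher and 5030 lower) and 400, the first pair with the reverse of the joint fit's balance, median scaling gave 5027 for the first, and an intensity trend 1305 for the last.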
